A study of Mus musculus with 16 samples.

Results

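The Flt3+ Dntt-low cells are a small population of bone marrow (BM) progenitors that was picked out by UMI counts, a UMI (unique molecular identifier) being 1 RNA molecule read in 1 cell. A cell of the lineage-negative c-Kit+ sort was a member if it held 201 to 5999 genes and at most 10% mitochondrial UMIs, and if it carried at least 2 UMIs of Flt3, at most 1 of Dntt, at most 1 of Hlf, Mecom and Procr together, at most 1 of Csf1r and F13a1 together, at most 1 of Siglech and at most 9 of Elane. These limits kept 537 of the 28155 cells retained in the 6 c-Kit+ libraries, and the whole series of 16 libraries held 73176 retained cells. The working name for them was Flt3+ multipotent progenitors without Dntt. They are called by the rule here, because 119 members carried 1 Dntt UMI, 371 carried at least 1 UMI of the neutrophil elastase gene Elane, and a small number carried RNA of other cell types.

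The study examined what IACS-70654, an orally given inhibitor of the bromodomains of the histone acetyltransferases CBP and P300, does to tumors and to blood formation in mice bearing triple-negative mammary tumors. All c-Kit+ libraries came from the BM of WT female BALB/c mice. The WT group, labelled as control, carried no tumor and received no treatment. The vehicle and IACS-70654 groups carried 2208L, a syngeneic Trp53-null mammary tumor transplanted at 7 to 8 weeks of age, and were dosed 3 days on and 2 days off with methylcellulose alone or with IACS-70654 suspended in it, so a tumor and gavage separate them from WT together. Mice given IACS-70654 are also called treated mice. Treatment is given as 6 days, with euthanasia 24 hours after the last dose, whereas the series record speaks of 7 days. A count of 5 doses is stated for the sort of all CD45+ BM cells, and none is stated for the c-Kit+ sort. Each sample pooled cells of 3 mice, and live CD45+ cells without CD11b, Gr-1, B220, Ter119 or CD3e and with c-Kit were sorted. Every group had 2 libraries, and whether these came from separate pools is not stated, so p-values measure only the spread between these libraries, which may be technical.

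Flt3 encodes a receptor tyrosine kinase that appears as hematopoietic stem cells become multipotent progenitors and lose long-term self-renewal. Such progenitors can still take a lymphoid course, marked by Dntt, the DNA polymerase that adds bases to antigen receptor joints, or a myeloid course, in which Irf8 favors monocytes and dendritic cells while granule protein genes such as Mpo, Prtn3 and Elane mark the path to neutrophils. Flt3 itself stays on in dendritic cells and their precursors, so a rule on Flt3 can also admit those.

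The values that chose the members are given as a description. Members carried a median of 3 Flt3 UMIs and at most 13. Just inside the limit, 263 cells had 2 Flt3 UMIs, and just outside it 931 cells that met every other limit had 1. For Dntt, 119 members sat at 1 UMI and 87 excluded cells at 2. For the stem cell genes Hlf, Mecom and Procr, 212 members sat at 1 UMI and 140 excluded cells at 2, and for Csf1r and F13a1 these numbers were 138 and 51. For Elane, 6 members had 9 UMIs, 2 excluded cells had 10 and 49 had more than 13. The Flt3, Dntt and stem cell limits thus ran through continuous ranges of counts, whereas few cells stood near the Siglech limit, with 5 members at 1 UMI and 2 excluded cells at 2.

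Depth differed between the groups. Members held a median of 6429 and 7093 UMIs in the WT libraries, 7763 and 7986.5 with vehicle and 5793 and 5575 in treated mice, so the cells of treated mice were the shallowest, and the median number of genes ran from 2309 to 2735. Summed over members, a library held between 385541 and 1175998 UMIs. No cell barcode was shared between any pair of the 6 libraries. A doublet caller marked 71 of 28155 cells, under 0.5%, and 1 member, in WT library 2, was among them. How well it worked was not tested, so doublets may remain.

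Genes that the rule did not use matched a multipotent progenitor in part. In CPM, a gene's UMIs per 1000000 UMIs of the library's members, Cd34, the sialomucin of early progenitors, ran from 231 to 337 across the 6 libraries in members and from 87.1 to 148 in the other c-Kit+ cells. Cd48, a SLAM family surface protein gained on leaving the stem cell state, ran from 117 to 171 against 68.6 to 82.8, and the costimulatory receptor gene Cd27 from 70.5 to 108 against 33.2 to 47.1. Satb1, a chromatin organizer of lymphoid progenitors, ran from 175 to 318 CPM in members, above the 57.1 to 88.4 of the rest and below the 453 to 850 of the Dntt+ cells, which met the same rule with 2 or more Dntt UMIs. The ranges of these 4 genes did not overlap between members and the rest. Against the Dntt+ cells alone, Cd34 (246 to 368 CPM there), Cd48 (94.6 to 133) and Cd27 (97.5 to 159) overlapped with members, and all 3 overlapped with stem-like cells too, at 124 to 264, 91.8 to 137 and 59.2 to 86.9 CPM. Stem-like cells were those with 2 or more UMIs of Hlf, Mecom and Procr together and at most 1 of Flt3. Il7r, the interleukin 7 receptor of lymphoid progenitors, was at 2.59 to 38.0 CPM in members and 162 to 230 in Dntt+ cells.

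Myeloid RNA was nevertheless present in most members. Mpo, the myeloperoxidase of neutrophil primary granules, ran from 1332 to 1692 CPM in members, below the 1839 to 3295 CPM of the other c-Kit+ cells and above the 648 to 809 CPM of Dntt+ cells. Prtn3, which encodes proteinase 3, ran from 1031 to 1572 CPM in members against 1914 to 4900 in the rest. The Elane limit keeps cells rich in Elane out of the members and leaves them in the rest. Elane itself ran from 160 to 243 CPM in members and from 1288 to 2825 in the rest. The lower Mpo and Prtn3 of members against the rest are thus not independent of the rule. Dntt+ cells met the same Elane limit. To compare cells of unequal depth, each was thinned at random to 3000 UMIs, which left out 31 of the 537 members. At that depth Mpo was found in 85.7% to 95.5% of members per library, but also in 40.8% to 50.2% of erythroid cells of the same libraries, which should lack it and which had a median of 12920 to 13896 UMIs before thinning. Irf8 was found in 35.9% and 38.3% of members in WT, 48.6% and 40.9% with vehicle and 24.0% and 24.6% in treated mice, against 1.93% to 4.20% of erythroid cells. Mpo and Irf8 were found together in 34.4% and 27.7% of members in WT, 40.0% and 40.9% with vehicle and 22.8% and 23.7% in treated mice. Since Mpo was found in most members, these joint shares follow the Irf8 shares and say nothing on their own about both genes in 1 cell.

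Some members carried RNA of another cell type, and these cells were not spread evenly. A member was set aside in a parallel fit if it held 10 or more UMIs of a marker list for another cell type, 5 or more of the MHC class II genes Cd74, H2-Aa, H2-Ab1 and H2-Eb1, or 100 or more plasma cell UMIs. This marked 45 of 537 members, namely 8 and 8 in the WT libraries, 8 and 6 with vehicle and 12 and 3 in treated mice. The class II limit alone was met by 1 and 4 WT members, 6 and 2 vehicle members and none of the IACS-70654 members, where 0 of 181 and 0 of 121 cells allow shares of up to 2.02% and 3.00% by the exact 95% binomial interval. Of these 13 cells, 9 held at most 3 plasma cell UMIs, and in these 9 Irf8 was found in 9, Clec9a in 7, Batf3 in 7 and Xcr1 in 5, genes of conventional dendritic cells, while Itgax and Zbtb46 were each found in 4 and Cd209a in 0. Of progenitor and myeloid genes, Mpo was found in 7 of the 9, at 305 CPM against 1548 in the other members. Kit was found in 5, at 108 against 159 CPM, and Cd34 in 1, at 18.0 against 302 CPM. Cells with 100 or more plasma cell UMIs numbered 1 in WT library 2 and 3 in vehicle library 1. Of the 6 conventional dendritic genes that the rule left free, 5 had UMIs, the exception being Cd209a, and their sum ran from 85.3 to 97.2 CPM in WT, 182 to 203 with vehicle and 5.95 to 8.09 with IACS-70654. Of 6 erythroid genes all had UMIs, at 313 and 430 CPM in WT, 145 and 64.8 with vehicle and 230 and 52.6 in treated mice. Basophil and mast cell genes reached 983 CPM in vehicle library 2 and stayed at or below 181 elsewhere. Of 4 monocyte genes all but Fcgr1 had UMIs, and their sum was 105 and 126 CPM in WT, 243 and 249 with vehicle and 138 and 202 in treated mice. Of the T and NK cell genes, Cd3e, Cd3d, Cd3g and Ncr1 were at 0 in members. Results below are given for all members, and the fit without those 45 cells is stated where it changes a call.

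**Figure D1:**
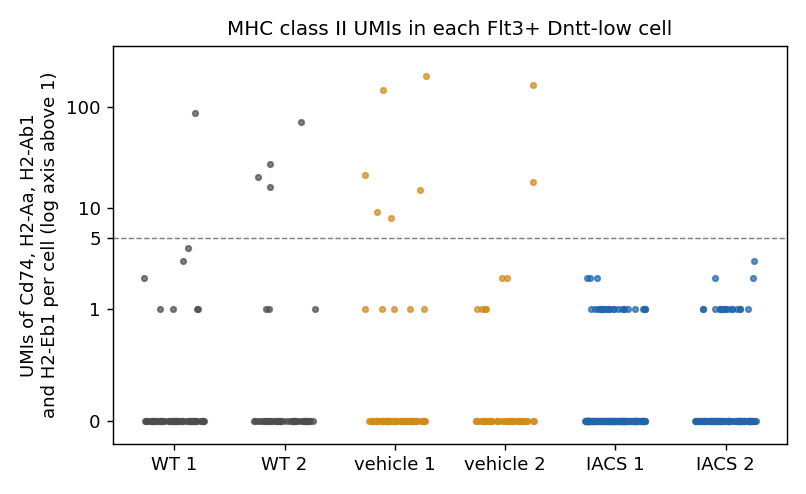
MHC class II UMIs (Cd74, H2-Aa, H2-Ab1 and H2-Eb1 summed, logarithmic above 1) in each Flt3+ Dntt-low cell of the 6 libraries, with a dashed line at 5 UMIs. The 13 cells at or above the line lie in the WT and vehicle libraries, and no cell of the IACS-70654 libraries holds more than 3.

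The question of abundance was whether the population grew or shrank with the tumor and with treatment. Members made up 1.68% (exact 95% interval 1.30 to 2.13) and 1.61% (1.20 to 2.13) of retained c-Kit+ cells in the WT libraries. With vehicle they made up 1.11% (0.872 to 1.39) and 1.69% (1.25 to 2.24). With IACS-70654 they made up 2.41% (2.07 to 2.78) and 2.80% (2.33 to 3.34), and both values lay above all 4 others. The intervals cover counting error only. The mean share was 1.20 percentage points higher with IACS-70654 than with vehicle and 0.960 points higher than in WT, each with p = 0.333 in an exact 2-sided permutation test over libraries, the smallest value that 2 against 2 libraries allow. Vehicle and WT differed by -0.243 points (exact permutation p = 1). Because the rule counts UMIs and depth differed, the rule was also applied to cells thinned to a fixed depth. At 5000 UMIs the shares of members were 1.62% and 1.73% in WT, 1.58% and 1.501% with vehicle and 2.18% and 2.54% in treated mice. At 3000 UMIs they were 1.495% and 1.67%, 1.24% and 1.92%, and 2.04% and 2.14%, so the IACS-70654 libraries still lay above the other 4, while the IACS-70654 minus vehicle difference was 0.508 points instead of 1.20. With at least 3 Flt3 UMIs required, the groups overlapped, since IACS-70654 library 1 was at 1.051% and WT library 1 at 1.058%, and the IACS-70654 minus WT difference was 0.331 points. The rule needs Flt3 UMIs, and in the other c-Kit+ cells Flt3 stood at 58.3 and 63.8 CPM with IACS-70654. There it stood at 41.8 and 50.3 CPM in WT and 39.8 and 46.6 with vehicle. Thinning does not remove such a difference, so more such cells and more Flt3 RNA per cell cannot be told apart. A higher share in treated mice was also not particular to members. Without thinning, Dntt+ cells made up 2.53% and 3.24% of c-Kit+ cells in treated mice, against 1.65% and 2.37% in WT libraries. Their shares in vehicle libraries were 1.37% and 1.27%. Stem-like cells made up 15.8% and 15.0% in treated mice, against 13.3% and 14.0% in WT libraries and 12.2% and 12.8% in vehicle libraries.

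**Figure D2:**
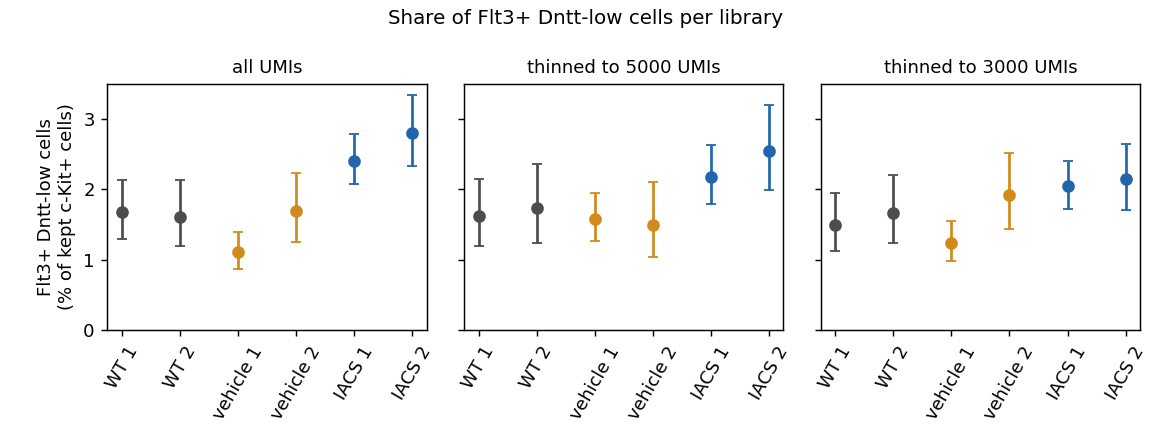
Share of Flt3+ Dntt-low cells among retained c-Kit+ cells in each library, in percent, with exact 95% binomial intervals, for all UMIs and after thinning cells to 5000 and 3000 UMIs. The IACS-70654 libraries lie highest in each panel, at 2.41% and 2.80% with all UMIs and at 2.04% and 2.14% with 3000.

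Cell cycle phase was called from S and G2/M gene scores after thinning to 5000 UMIs, which left 51 and 40 members in WT, 60 and 37 with vehicle and 108 and 68 in treated mice. The share of these cells in S phase was 21.6% and 15.0% in WT, 26.7% and 27.0% with vehicle and 18.5% and 17.6% in treated mice. IACS-70654 libraries thus lay 8.76 points below vehicle on average (exact permutation p = 0.333), and this difference was -9.06 points at 3000 UMIs and -13.5 without thinning. The vehicle minus WT difference of 8.56 points did not hold its direction, being -2.11 points at 3000 UMIs. IACS-70654 minus WT was -0.20 points at 5000 UMIs, -11.2 at 3000 and -10.9 without thinning. Thinning also leaves out shallower cells, with 108 and 68 treated members at 5000 UMIs, 167 and 114 at 3000 and 181 and 121 without thinning, so depth and the choice of cells cannot be told apart here. The share in G2/M was 23.5% and 22.5% in WT, 28.3% and 29.7% with vehicle and 32.4% and 20.6% in treated mice, so the treated libraries lay on both sides of vehicle. Among all c-Kit+ cells the share in S phase was also lower with IACS-70654, at 31.3% and 27.9% against 33.9% and 35.0% with vehicle. Free RNA in droplets also enters such scores, and its part in them was not tested.

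Differences in RNA were tested on the UMIs of all members summed per library, with edgeR's quasi-likelihood test and Benjamini-Hochberg adjustment over 7337 genes. A call needed both a log2 fold change over 0.5 in size and an adjusted p below 0.01. In such sums, fewer cells that express a gene and less RNA per cell cannot be told apart.

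The comparison of vehicle-treated tumor-bearing mice with WT mice asks how these progenitors differ in mice with a tumor and gavage. It called 14 genes, 10 higher (0.136%) and 4 lower (0.0545%), or 0.191% of those tested. The count was 3 with DESeq2, 6 without the 1 member marked as a doublet and 65 when 1 Flt3 UMI sufficed. Without the 45 cells it called 4 higher and 4 lower, 0.0589% each of 6791 genes and 0.118% together. Of the 14 genes, 4 were called in every fit that left out 1 library and again without the 45 cells with other RNA. They were picked out after their values were seen. DESeq2 called 3 of these 4, the exception being Ifitm1. Angpt1 (ENSMUSG00000022309), the angiopoietin 1 ligand that primitive blood cells produce, stood at 537 and 537 CPM in WT and at 170 and 233 with vehicle, a log2 fold change of -1.45 ± 0.15 (SE, n = 2 libraries per group, edgeR adjusted p = 4.38e-07). Dach1, a transcriptional cofactor of early progenitors, stood at 250 and 282 CPM in WT and 137 and 75.2 with vehicle (-1.26 ± 0.18, edgeR adjusted p = 4.73e-05). For both genes, as for all 14 called, the libraries of the 2 groups did not overlap. Ifitm1, an interferon-inducible membrane protein, rose from 398 and 309 CPM to 677 and 1022 (1.23 ± 0.14, edgeR adjusted p = 1.73e-06, DESeq2 adjusted p = 0.0517). Tspo, a cholesterol-binding protein of the outer mitochondrial membrane, rose from 414 and 408 CPM to 729 and 682 (0.77 ± 0.11, edgeR adjusted p = 4.73e-05).

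The other 10 genes called in vehicle against WT lost their call, or were not tested, in at least 1 of these fits. Aopep, an aminopeptidase gene, was 0.85 higher and was called in all 6 fits without 1 library, but without the 45 cells it was 0.72 higher with an edgeR adjusted p of 0.0138. H2-Aa and H2-Ab1 were 1.31 and 1.47 higher on the log2 scale, but they were not tested without the 45 cells, where too few UMIs remained, and edgeR adjusted p was 0.162 and 0.0881 without WT library 1, 0.0189 and 0.259 without vehicle library 1 and, for H2-Ab1, 0.0425 without WT library 2. Cst3, cystatin C, was 0.61 higher and Pclaf, a PCNA-binding factor, 0.77 higher, and without the 45 cells these were 0.27 and 0.45 with edgeR adjusted p of 0.574 and 0.362. Wfdc17, an antiproteinase-like gene of activated myeloid cells, was 1.40 higher with all members and 1.26 without the 45 cells, but its edgeR adjusted p was 0.113 without vehicle library 2 and 0.0161 without WT library 2. Ifitm3 was 0.74 higher with all members, with adjusted p of 0.132 and 0.0734 in those fits. Blvrb, biliverdin reductase B of red cell precursors, was 2.18 lower on the log2 scale, from 178 and 156 CPM to 49.6 and 18.2. Without 1 library its log2 fold change ran from -3.21 to -1.75. Erythroid genes summed to 313 and 430 CPM in WT against 145 and 64.8 with vehicle. Their part in the Blvrb value was not tested beyond the fit without the 45 cells, in which the log2 fold change was -0.38 (edgeR adjusted p = 0.923). Irf8 stood at 206 and 207 CPM in WT and 364 and 301 with vehicle and was not called (log2 fold change 0.69 ± 0.15, edgeR adjusted p = 0.0216).

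Treatment was compared within tumor-bearing mice. IACS-70654 against vehicle called 124 genes, 46 higher (0.627%) and 78 lower (1.06%), or 1.69% of those tested. Without the 45 cells 58 were higher (0.854%) and 78 lower (1.15%), or 2.0%. Of the 124 genes, 90 were called again without the 45 cells, 12 were not tested there and 22 were not called. Leaving out 1 library gave from 53 genes (without IACS-70654 library 1) to 157 (without WT library 2), with 82 without IACS-70654 library 2. The number called in all 6 of these fits and without the 45 cells was 29, of which 13 rose and 16 fell, and the paragraphs on rises and falls start from them. DESeq2 also called 24 of the 29, 9 that rose and 15 that fell, out of 37 genes in all. Among those it did not call were Angpt1, Lsamp and Spns2, with DESeq2 adjusted p of 0.0332, 0.0134 and 0.0168. The set of 29 was formed after the values were seen.

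**Figure D3:**
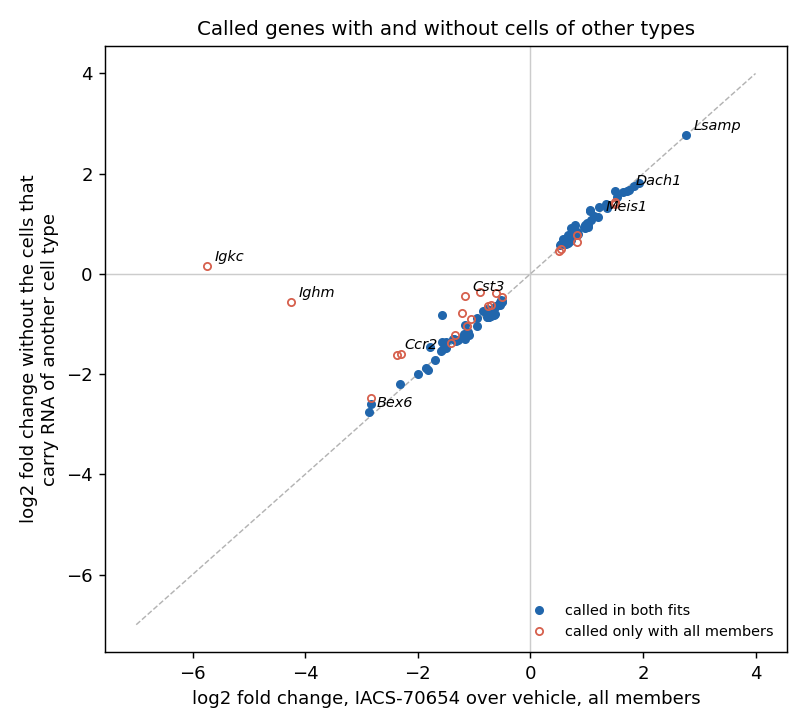
Log2 fold change of IACS-70654 over vehicle for 112 called genes in the Flt3+ Dntt-low cells, with all members on the horizontal axis and without the 45 cells that carry RNA of another cell type on the vertical axis. The 90 genes called both ways (filled) lie near the dashed line of equality, whereas among the 22 open circles Igkc moves from -5.74 to 0.15 and Ighm from -4.25 to -0.56.

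Genes of early progenitors were among the rises. Meis1 (ENSMUSG00000020160), a homeobox factor of stem and multipotent cells, stood at 244 and 365 CPM in WT, 246 and 254 with vehicle and 567 and 620 in treated mice, or a log2 fold change over vehicle of 1.20 ± 0.13 (SE, n = 2 per group, edgeR adjusted p = 8.07e-08). After thinning to 3000 UMIs, Meis1 was found in 57.1% and 50% of vehicle members and in 76.1% and 68.4% of IACS-70654 members, against 5.87% to 10.7% of erythroid cells. Adgrl4, an adhesion G protein-coupled receptor, stood at 474 and 449 CPM with vehicle and at 896 and 1049 in treated mice (1.02 ± 0.10, edgeR adjusted p = 6.14e-09). Both genes were at similar CPM in WT and vehicle, so their treated libraries lay above every other library. Angpt1 and Dach1, which were lower with vehicle than in WT, were higher with IACS-70654. Angpt1 stood at 339 and 500 CPM (1.02 ± 0.15 over vehicle, edgeR adjusted p = 2.29e-05), between vehicle and WT. Dach1 stood at 374 and 400 CPM (1.75 ± 0.16, edgeR adjusted p = 8.87e-10), above both other groups. The vehicle libraries enter both comparisons, so the opposite signs of these 2 genes are not independent of each other.

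Several genes of other functions rose as well. Lsamp, a cell adhesion protein best known from neurons, stood at 101 and 29.2 CPM in WT, 66.1 and 31.1 with vehicle and 353 and 388 in treated mice (2.77 ± 0.23, edgeR adjusted p = 8.39e-11, and 3.52 without vehicle library 1). Txnip binds thioredoxin and limits glucose uptake. Its level was 85.25 and 104.5 CPM in WT, 56.2 and 28.5 with vehicle and 134 and 131 in treated mice. The change over vehicle was 1.51 ± 0.24 (edgeR adjusted p = 5.72e-05), and 2.17 without vehicle library 1. Against WT, Txnip was 0.44 higher in treated mice (edgeR adjusted p = 0.294) and 1.07 lower with vehicle (edgeR adjusted p = 0.0781), neither of them called. Malat1, a nuclear long noncoding RNA, stood at 5727 to 6522 CPM in the 4 WT and vehicle libraries and at 10230 and 10458 with IACS-70654 (0.72 ± 0.04, edgeR adjusted p = 1.85e-15). The treated libraries did not overlap with vehicle for these 3 genes, but this held for 121 of the 124 called genes and so sets none apart. The remaining rises of the 29 were Spns2, a sphingosine 1-phosphate exporter, at 1.72 on the log2 scale, Arhgap6 at 1.13, Zfand5 at 1.09, the GTPase regulator Sipa1l1 at 0.98, the phosphodiesterase Pde4b at 0.96 and Calcrl, a receptor subunit for adrenomedullin, at 0.86. Kit, the receptor whose protein the sort selected, stood at 119 and 156 CPM in WT, 95.8 and 104 with vehicle and 194 and 212 in treated mice (0.98 ± 0.17, edgeR adjusted p = 0.000214), but its adjusted p was 0.0162 without vehicle library 1. Some large rises lost their call without 1 library. Ddah2, which breaks down methylated arginines, stood at 16.5 and 7.78 CPM with vehicle and 46.8 and 59.3 in treated mice (1.93 ± 0.38, edgeR adjusted p = 0.00115), with adjusted p of 0.01004 and 0.0257 without IACS-70654 libraries 1 and 2 and 0.0225 without vehicle library 2. The glycosyltransferase gene Gcnt2 was 1.39 higher and, without vehicle library 1, 0.92 (edgeR adjusted p = 0.0417). Tcf7l2, a Wnt pathway factor, was 1.36 higher, with adjusted p of 0.0226 and 0.0173 without IACS-70654 libraries 1 and 2 and 0.12 without vehicle library 1. The chemokine gene Ccl4 was 1.65 higher (edgeR adjusted p = 1.64e-05). Notch1, Csf3r and Il7r differed by -0.08, -0.48 and -1.01 and were not called (edgeR adjusted p = 0.935, 0.355 and 0.349).

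**Figure D4:**
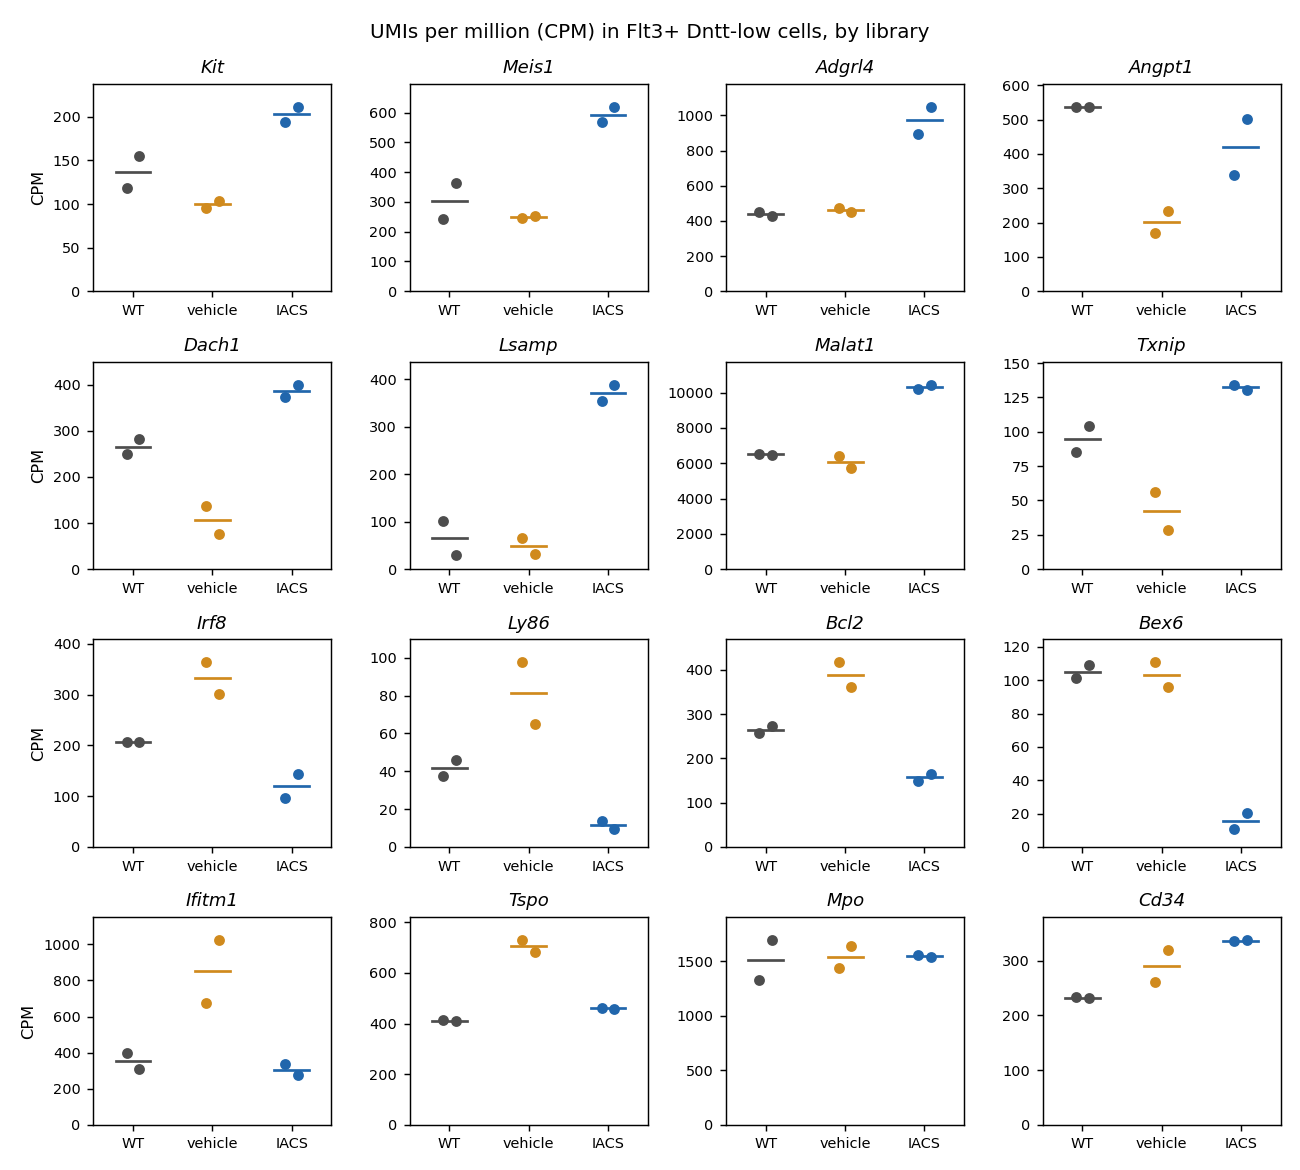
CPM of 16 genes in the Flt3+ Dntt-low cells, each point being 1 library and each bar the mean of the 2 libraries of WT, vehicle or IACS-70654 mice (IACS). Meis1, Adgrl4, Lsamp and Malat1 are highest with IACS-70654, Irf8, Ly86, Bcl2 and Bex6 are lowest there, Angpt1 and Dach1 are lowest with vehicle, and Mpo differs little between groups.

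The falls included Irf8, Ly86 and Tyrobp. Irf8 (ENSMUSG00000041515), the interferon regulatory factor that favors monocytes and dendritic cells, stood at 206 and 207 CPM in WT, 364 and 301 with vehicle and 96.9 and 143 in treated mice. This was a log2 fold change over vehicle of -1.57 ± 0.15 (SE, n = 2 per group, edgeR adjusted p = 2.18e-09). Without the 45 cells, which include the 13 cells rich in class II RNA, the fold change was -1.36 (edgeR adjusted p = 6.95e-08). Ly86, which encodes the toll-like receptor partner MD-1, stood at 97.5 and 64.8 CPM with vehicle and 13.6 and 9.44 in treated mice (-2.84 ± 0.31, edgeR adjusted p = 6.72e-08, and -2.60 without the 45 cells). Tyrobp, the signaling adaptor DAP12, was 0.94 lower. Treated libraries were the lowest of the 6 for Irf8 and Ly86. The dendritic and the monocyte marker sums given above were also lower in treated than in vehicle libraries, and beyond the fit without the 45 cells their part in these falls was not tested.

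Further genes among the 29 fell. Bcl2, the antiapoptotic factor, stood at 258 and 272 CPM in WT, 416 and 361 with vehicle and 149 and 166 in treated mice (-1.37 ± 0.13, edgeR adjusted p = 9.22e-10). Bex6, a small protein of little known function, fell from 111 and 96.0 CPM to 11.1 and 20.2 (-2.86 ± 0.29, edgeR adjusted p = 5.98e-09). Bex6 stood at 101 and 109 CPM in WT, so the treated libraries were below all others. Ifitm1 and Tspo, which were higher with vehicle than in WT, were lower with IACS-70654, Ifitm1 at 335 and 276 CPM (-1.498 ± 0.14, edgeR adjusted p = 9.22e-10) and Tspo at 461 and 458 CPM (-0.67 ± 0.10, edgeR adjusted p = 5.23e-05), and these levels were near those of WT. Also among the 29 were falls of Ass1, an enzyme of arginine synthesis, at -2.00 on the log2 scale, the surface glycoprotein gene Cd52 at -1.57, the galectin gene Lgals1 at -1.55, Auts2 at -1.505, the pyrophosphatase gene Ppa1 at -1.16, the fatty acid carrier gene Fabp5 at -0.94, Tex14 at -0.84 and the cytokine gene Mif at -0.74.

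Most neutrophil granule genes were not called. The Elane limit counts UMIs, so in the shallower cells of treated mice it can admit cells with a higher share of granule RNA. In members Elane stood at 243 and 206 CPM in treated mice and 160 and 184 with vehicle. In the other c-Kit+ cells it stood at 2654 and 2617 CPM against 2825 and 2808. Values of granule genes in members are thus not independent of the rule. Mpo stood at 1441 and 1644 CPM with vehicle and at 1559 and 1541 in treated mice (log2 fold change -0.04 ± 0.09, edgeR adjusted p = 0.895). Prtn3 stood at 1323 and 1572 CPM with vehicle and at 1148 and 1031 in treated mice (-0.45 ± 0.09, edgeR adjusted p = 0.00139), below the fold limit of a call. Ctsg, cathepsin G, differed by -0.06 (edgeR adjusted p = 0.886) and Ms4a3 by -0.41 (edgeR adjusted p = 0.422). Of 12 azurophil granule genes tested, Cst7 and Lyz2 fell and none rose, and all 12 had a log2 fold change below 0, with a median of -0.43 against a median of 0.00 for all genes. Lyz2, lysozyme, stood at 84.3 and 101 CPM with vehicle and at 40.0 and 44.5 in treated mice (-1.17 ± 0.23, edgeR adjusted p = 0.00151), and its adjusted p was 0.0465 without IACS-70654 library 1 and 0.0254 without vehicle library 2. Cst7, cystatin F, was 1.36 lower, with an adjusted p of 0.0239 without IACS-70654 library 1, 0.0173 without IACS-70654 library 2 and 0.0272 without vehicle library 2. A neutrophil differentiation signature printed by the study had 43 genes tested outside the rule, of which Slco3a1 rose and Ifitm1 and Ifitm3 fell, with a median of -0.13. Slco3a1 had an edgeR adjusted p of 0.113 without IACS-70654 library 2 and 0.0856 without vehicle library 1, and Ifitm3 of 0.0273 without IACS-70654 library 1 and 0.0346 without vehicle library 2. None of Slco3a1, Ifitm1 and Ifitm3 encodes a granule protein. Among 12 granulocyte and monocyte factors Irf8 fell and none rose (median 0.27), and Cebpa, the factor of the granulocyte and monocyte branch, differed by 0.62 ± 0.39 (edgeR adjusted p = 0.453).

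MHC class II genes were among the falls, and in WT and vehicle a few cells held most of their UMIs. Members held 99 and 137 UMIs of the 4 class II genes in the WT libraries, 403 and 191 with vehicle and 31 and 24 in treated mice, and the highest single cell held 86, 71, 200, 165, 2 and 3 of them. Cd74, the invariant chain, was counted with 32 and 81 UMIs in the WT libraries, 181 and 83 with vehicle and 1 and 2 in treated mice, and H2-Eb1 with 51 and 20 UMIs with vehicle and 0 and 1 in treated mice. With so few counts in treated libraries a fitted fold change depends on the prior count and is no measure of size. Of 5 class II genes tested, 4 fell (Cd74, H2-Aa, H2-Ab1 and H2-Eb1), and without the 45 cells these 4 had too few UMIs to be tested. In members under the class II limit, the 4 genes summed to 26.0 and 8.05 CPM in WT, 9.11 and 21.2 with vehicle and 26.4 and 32.4 in treated mice, and since members were put under that limit by the UMIs of the same 4 genes, nothing is read from these levels. Of 9 dendritic and monocyte genes, 4 fell and none rose (median -1.21). These were Irf8, Ly86, the chemokine receptor gene Ccr2 and Mpeg1, a macrophage pore-forming protein, of which Ccr2 and Mpeg1 had edgeR adjusted p of 0.0441 and 0.062 without the 45 cells and, with all members but without vehicle library 1, 0.024 and 0.205. Immunoglobulin RNA rested on 1 library. Igkc was counted with 61 and 3546 UMIs in WT, 7054 and 45 with vehicle and 136 and 83 in treated mice, and its log2 fold change was -5.74 with all members and -0.07 without vehicle library 1.

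Stem cell and multipotent gene lists held calls in both directions. Of 11 stem cell genes tested, Angpt1, Meis1 and Txnip rose and Ifitm1 and Ifitm3 fell (median 0.47), and without the 45 cells Gata2 was called higher too, at 1.73. The 5 called genes include Txnip, which acts in redox control, and Ifitm1 and Ifitm3, which also respond to interferon. Of 23 genes of the multipotent program, Adgrl4, Ikzf2 and Meis1 rose and Spns3 fell (median 0.01). Ikzf2 had an edgeR adjusted p of 0.0296 without IACS-70654 library 2 and 0.0286 without vehicle library 2, and Spns3 of 0.0764 without vehicle library 1 and 0.0206 without IACS-70654 library 1. Cd34, Cd48 and Satb1 differed by 0.18, 0.01 and 0.28 with edgeR adjusted p of 0.484, 0.986 and 0.256. Of 8 lymphoid priming genes, Emb and Ighm fell (median -0.57, and -0.02 without the 45 cells). Emb had an edgeR adjusted p of 0.0187 without IACS-70654 library 1, and Ighm was at -0.56 without the 45 cells (edgeR adjusted p = 0.0401). Of 17 growth factor receptor genes, Kit rose (median -0.04). No call was made among 3 megakaryocyte genes (median 0.27), 9 erythroid genes (-0.39) and 3 basophil and mast cell genes (0.81). In the fit without the 45 cells, Blvrb of the erythroid list was called higher, at 1.41, as were Gata2 and Cpa3, a mast cell protease, of the basophil and mast cell list, at 1.73 and 1.93.

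Cell cycle, interferon and chromatin lists held few calls. Of 33 DNA replication genes, 32 had a log2 fold change below 0 (median -0.54), but only Rfc2, a clamp loader subunit, was called, at -0.75 ± 0.16 (edgeR adjusted p = 0.00217), and its adjusted p was 0.0516 without IACS-70654 library 1, 0.0114 without IACS-70654 library 2 and 0.0475 without vehicle library 2. Without the 45 cells 4 replication genes were called lower and the median was -0.67. No call was made among 26 mitosis genes (-0.09) or 15 G1 cyclins and inhibitors (0.28). Of 27 interferon response genes 24 had a log2 fold change above 0 (median 0.56), none rose and Ifitm3 fell. Of 19 MHC class I genes Psmb8, an immunoproteasome subunit, fell (median -0.21), with an adjusted p above 0.01 in each fit without a vehicle or an IACS-70654 library. No call was made among 22 genes of histone acetylation and its readers (0.06), where the targets' own genes Crebbp and Ep300 differed by 0.58 ± 0.15 and 0.13 ± 0.24 (edgeR adjusted p = 0.0162 and 0.843), or among 28 Myc and ribosome biogenesis genes (-0.17) and 17 glycolysis genes (-0.30). When the 45 cells were left out, 1 gene was called in each of 3 of these lists, namely Btg2 among G1 cyclins and inhibitors, at 1.01, Srm among Myc and ribosome biogenesis genes, at -0.99, and Ldha among glycolysis genes, at -0.61. Each of 5 further lists held 1 or 2 calls. Fosb fell among 19 immediate early genes (median 0.10), Ccl4 rose among 12 of NF-kB and inflammation (0.37), Ccr2 and Itga4 fell among 14 of trafficking and adhesion (-0.17), Bcl2 fell among 11 of p53 and apoptosis (0.24) and Malat1 and Txnip rose among 5 of Txnip, arrestins and nuclear noncoding RNA (0.29). Fosb and Itga4 were not called without the 45 cells (edgeR adjusted p = 0.102 and 0.0273), where Btg2 was the one immediate early gene called. With all members, Fosb had adjusted p of 0.298 without vehicle library 1, 0.0919 without IACS-70654 library 1 and 0.0225 without IACS-70654 library 2. In the same fits Itga4 had 0.317, 0.0131 and 0.0706, and Ccl4 had 0.013 without vehicle library 1. Of 2 stefin and cystatin genes Cst3 fell (median -0.53), by 1.16 with all members and by 0.45 without the 45 cells.

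The comparison of treated tumor-bearing mice with WT asks how far the progenitors of treated mice differ from those without a tumor. It called 89 genes, 38 higher (0.518%) and 51 lower (0.695%), or 1.21% of those tested. Without the 45 cells 24 were higher (0.353%) and 40 lower (0.589%), or 0.942%, and 51 of the 89 were called again without the 45 cells. Leaving out WT library 1 gave 37 genes, WT library 2 gave 41 and either IACS-70654 library gave 45. Among the 13 genes that held in all 6 of these fits and without the 45 cells were Adgrl4, Ddah2, Ifi27l2a, Lpp, Lsamp and Malat1, which were higher, and Apoe, Auts2, Bex6, Gm47283, Kcnq5 and Lgals1, which were lower. Ifi27l2a, an interferon-induced gene, stood at 17.8 and 26.7 CPM in WT, 64.4 and 77.8 with vehicle and 103 and 128 in treated mice (2.31 ± 0.29 over WT, edgeR adjusted p = 1.67e-06), while vehicle against WT missed the threshold (1.66 ± 0.35, edgeR adjusted p = 0.0121). Apoe, apolipoprotein E, stood at 91.2 and 131 CPM in WT, 44.6 and 59.7 with vehicle and 26.4 and 32.4 in treated mice (-1.98 ± 0.26, edgeR adjusted p = 3.09e-06), lowest in treated mice. Adgrl4 (1.08 ± 0.10 over WT), Lsamp (2.37 ± 0.22, and 3.60 without WT library 1) and Malat1 (0.62 ± 0.04) had edgeR adjusted p of 3.61e-09, 1.71e-09 and 2.32e-13. DESeq2 called 16 genes in this comparison, and of the 13 it called 5, namely 2 that were higher and 3 that were lower. The IACS-70654 libraries are the same as in the comparison with vehicle.

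Of the larger changes against WT, several lost their call without 1 library. Ddah2, which kept its call, stood at 7.93 and 2.43 CPM in WT and was 3.15 higher in treated mice (edgeR adjusted p = 5.21e-05). Without 1 library its log2 fold change ran from 2.63 to 4.26. The semaphorin gene Sema3d stood at 15.9 and 2.43 CPM in WT and 52.7 and 53.9 in treated mice (2.36 ± 0.48, edgeR adjusted p = 0.00326), and it was 4.30 higher without WT library 1 and 1.68, with an adjusted p of 0.0722, without WT library 2. Without IACS-70654 library 1 the adjusted p of Sema3d was 0.031. The calcium-binding protein gene S100a4 stood at 11.9 and 7.29 CPM in WT and 48.5 and 58.0 in treated mice (2.34 ± 0.45, edgeR adjusted p = 0.00175, and 0.0345 and 0.0272 without WT libraries 1 and 2). S100a6 was 2.01 higher, 1.28 without WT library 1 (edgeR adjusted p = 0.198) and 3.13 without WT library 2. Cpa3 was 1.62 higher and, without the 45 cells, 1.07 (edgeR adjusted p = 0.0177), with 0.16 without WT library 1 and 0.017 without IACS-70654 library 2. Lpp, a focal adhesion protein, was 1.49 higher (edgeR adjusted p = 9.63e-05). Ermap, an erythroid membrane protein, was 2.32 lower but was not tested without the 45 cells. Without 1 library its log2 fold change ran from -5.31 to -1.66, and it lost its call in some of these fits.

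Against WT the lists held further calls. Nkg7 and Lyz2 of the 12 azurophil genes were 1.12 and 1.11 lower, and in the multipotent list Ikzf2 was 0.76 higher beside Adgrl4 and Meis1. Ly86 was 1.83 lower, Dut, the dUTPase, 0.60 lower among 33 replication genes, and Nop58, a nucleolar protein, 0.58 lower among 28 Myc and ribosome biogenesis genes. Igfbp4 was 0.76 lower and Slco3a1 1.26 higher in the neutrophil signature, Ifi27 0.82 higher among 27 interferon genes, Ccl4 1.04 higher, Bcl2 0.81 lower and Cst3 0.55 lower. Most of these calls were lost without 1 library. In the fits without WT library 1, WT library 2, IACS-70654 library 1 or IACS-70654 library 2, the edgeR adjusted p of Nkg7, Lyz2, Ly86, Dut, Nop58, Igfbp4 and Ccl4 was above 0.01 each time, from 0.012 for Dut to 0.26 for Igfbp4. Ikzf2 kept its call without IACS-70654 library 1 and Ifi27 without IACS-70654 library 2, but not in the other 3 of those fits. Slco3a1 missed it without WT library 1 (0.0284), Bcl2 without IACS-70654 library 1 (0.0271) and Cst3 without IACS-70654 library 1 (0.176) and WT library 2 (0.0983). Leaving out the 45 cells gave adjusted p of 0.0204 for Ikzf2, 0.0304 for Ly86, 0.0111 for Nop58, 0.0771 for Ifi27, 0.035 for Ccl4 and 0.501 for Cst3, while the other 6 were called.

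Angpt1, Ifitm1 and Tspo, called in both comparisons with vehicle, were not called against WT, with log2 fold changes of -0.43, -0.26 and 0.10 and edgeR adjusted p of 0.0841, 0.411 and 0.728, and Dach1 was at 0.49 (edgeR adjusted p = 0.0405). Angpt1 without the 45 cells was called lower, at -0.56 (edgeR adjusted p = 0.00764). Meis1 was 0.92 ± 0.13 above WT (edgeR adjusted p = 2.26e-05), but its adjusted p was 0.0125 without WT library 1. Irf8 was 0.88 below WT (edgeR adjusted p = 0.00127), with an adjusted p of 0.131 without IACS-70654 library 1 and 0.0355 without WT library 1. Cdk6, a G1 kinase, was 0.54 higher (edgeR adjusted p = 0.000144), and 0.46 without WT library 2 and 0.44 without the 45 cells, below the fold limit. Cdkn1a, the p21 inhibitor, stood at 23.8 and 26.7 CPM in WT and 67.2 and 66.1 with IACS-70654 (1.35 ± 0.30, edgeR adjusted p = 0.00698), with adjusted p of 0.0264 to 0.163 in the fits without a WT or an IACS-70654 library and 0.035 without the 45 cells. Hemoglobin transcripts were counted mainly in WT library 1, with 58 UMIs of Hba-a1 against 0 to 18 in the others, and their falls turned into rises of 3.57 for Hba-a1 and 1.53 for Hbb-bs without that library.

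Whether the response to IACS-70654 differed from that of neighboring populations was tested as an interaction of population and group, with library as a block and calls at an adjusted p under 0.05. Against the 592 Dntt+ cells, 10 genes differed of 8079 tested, or 0.124%, and without cells that carry RNA of other types 3 of the 10 (Prss34, Jchain and Cd74) were not tested and the other 7 were not called. Adgrl4 was called in that fit, with a difference of 0.64 (edgeR adjusted p = 0.0275). Most of the 10 mark other cell types, such as Igkc, Jchain and Ighm of plasma cells, Cd74 and H2-Ab1 of dendritic cells, Prss34 of basophils and Car1 of erythroid cells. Irf8 fell by 1.57 in members and by 0.69 in Dntt+ cells, and the difference of -0.93 ± 0.20 had an edgeR adjusted p of 0.0128 with all cells, 0.198 without those cells and 0.0528 to 0.739 in the fits without a vehicle or an IACS-70654 library. Meis1, Dach1, Angpt1 and Lsamp were also higher in Dntt+ cells with IACS-70654 than with vehicle, by 0.63, 1.37, 0.75 and 1.84. In members they were higher by 1.20, 1.75, 1.02 and 2.77. The differences were 0.55 ± 0.18, 0.32 ± 0.33, 0.30 ± 0.23 and 0.84 ± 0.34, with edgeR adjusted p of 0.461 to 0.952. A difference between the populations was thus not detected and is not excluded by these errors.

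Against the 3943 stem-like cells, 59 genes differed of 10946 tested, or 0.539%, of which 21 were called again without cells that carry RNA of other types and 8 were not tested there. The 4 that also held without any 1 library were Dach1, Lsamp, Angpt1 and Meis1. Dach1 rose by 1.75 on the log2 scale in members and by 0.31 in stem-like cells, a difference of 1.45 ± 0.15 (edgeR adjusted p = 2.1e-09). For Lsamp the changes were 2.77 and 0.97 and the difference 1.79 ± 0.22 (edgeR adjusted p = 2.33e-07), with 2.69 without vehicle library 1 and 1.37 without vehicle library 2. Angpt1 changed by 1.02 in members and by -0.00 in stem-like cells, where it stood at 982 to 1594 CPM, above the 170 to 537 of members (difference 1.01 ± 0.14, edgeR adjusted p = 3.68e-06). Meis1 rose by 1.20 in members and by 0.44 in stem-like cells (difference 0.76 ± 0.12, edgeR adjusted p = 9.91e-05), and its level with IACS-70654 in members, 567 and 620 CPM, remained below the 666 to 1008 of stem-like cells. Irf8 fell by 1.57 in members and differed by -0.17 in stem-like cells, where it stood at 17.7 to 23.4 CPM, and the difference of -1.47 ± 0.22 had an edgeR adjusted p of 3.85e-05, 0.0677 without vehicle library 1 and 0.0661 without IACS-70654 library 1. No difference between the populations was called for 4 other genes that IACS-70654 moved in members, with values of 0.19 ± 0.17 for Kit, -0.10 ± 0.05 for Malat1, 0.18 ± 0.24 for Txnip and -0.36 ± 0.15 for Bcl2 and edgeR adjusted p of 0.444 to 0.926. Stem-like cells were chosen by UMIs of Hlf, Mecom and Procr, and Hlf in them stood at 358 and 358 CPM with IACS-70654. With vehicle it stood at 208 and 222 CPM. Whether the limit thus admitted other cells in treated mice was not tested.

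**Figure D5:**
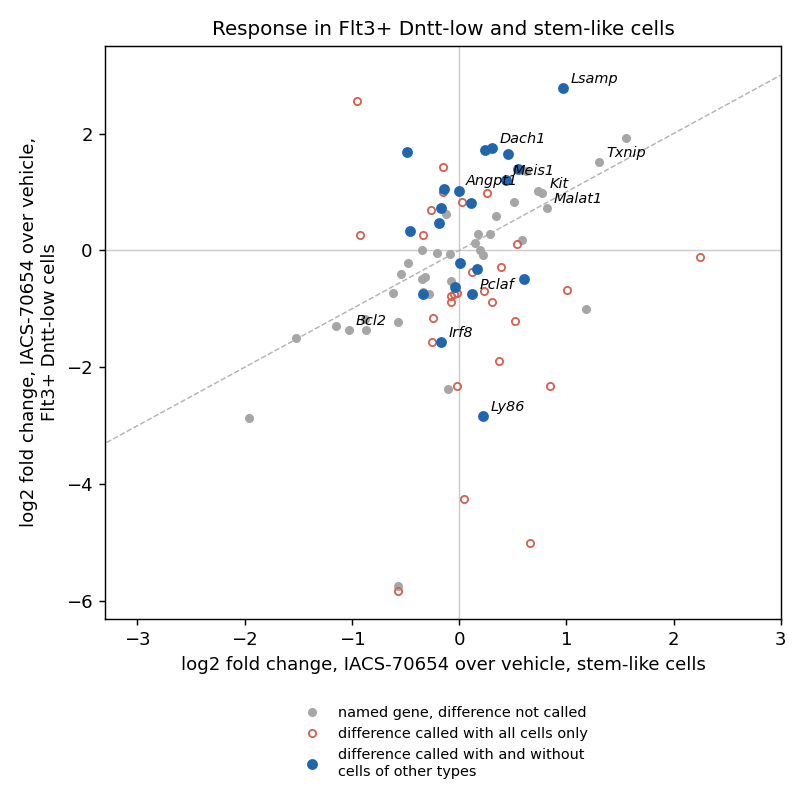
Log2 fold change of IACS-70654 over vehicle in stem-like cells (horizontal) and in Flt3+ Dntt-low cells (vertical) for 85 genes, with a dashed line of equality. The 21 filled points mark genes whose change differed with and without cells of other types, 28 open points those that differed with all cells only and 36 gray points named genes not called, and Dach1, Lsamp and Meis1 lie above the line while Irf8 and Ly86 lie below it.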

How the data were processed

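The authors ran Cell Ranger 7.2.0 (file headers) against mm10 (submitters' processing notes) on 10x libraries and deposited counts of UMIs per gene and cell, raw and not normalized, with CellPlex tags among the features, which were left out. Members and gene lists were chosen with earlier results of these data known. Counts were summed over members per library (411403 UMIs in WT library 2, for example) and fitted over all 6 libraries with edgeR 4.0.16 (filterByExpr, TMM, quasi-likelihood test, Benjamini-Hochberg adjustment) in R 4.3.3. DESeq2 1.42.0 was an alternative. Others changed the filter, the rule's limits, thinning, the replicate block and the libraries. Cells were handled with scanpy 1.11.5 and scipy 1.17.1. The edgeR and DESeq2 fits of IACS-70654 against vehicle were tested on simulated sums with 1 common spread for all genes. There edgeR called 142 and DESeq2 84 of 192 genes changed by 1.5 on the log2 scale, each with 0 false calls. The interaction fit and the thinning, phase and share steps were not tested in that way. Named were, per contrast, the 8 largest called rises and falls with at least 50 CPM in the higher group and no overlap between libraries, up to 4 called genes per list and direction, and preset progenitor genes, called or not, which are not given for every contrast. The neutrophil signature was chosen by the study and is not independent evidence. Genes that held in every fit, the removal of 45 cells, the removal of each gene's highest cell and the crossed block were chosen after seeing the data. The results of a few genes are not reported here.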

Additional observations from a re-analysis of the deposited data

Results flagged for a closer look

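These results were singled out because the IACS-70654 minus vehicle change differed between the Flt3+ Dntt-low cells and a neighboring population in a test of that difference (edgeR interaction, adjusted p under 0.05). All values are differences of log2 fold changes, members minus the other population. Against Dntt+ cells they were -6.51 for Igkc, -7.34 for Prss34, -7.44 for Jchain, -1.16 for Cst3, -1.84 for Car1, -3.69 for Ighm, -4.71 for Cd74, -2.16 for H2-Ab1, 1.70 for Ccl4 and -0.93 for Irf8, and without cells that carry RNA of other types Prss34, Jchain and Cd74 were not tested and the other 7 were not called. Without vehicle library 1 the values were -0.20 for Igkc, 0.33 for Jchain and 0.24 for Ighm, and Prss34 was -1.93 without IACS-70654 library 1 and -4.10 without vehicle library 2, with no call. Car1 was -0.85 without vehicle library 1 (edgeR adjusted p = 0.845), and Cd74 was -3.84 without IACS-70654 library 1 (edgeR adjusted p = 0.739) and -7.86 without vehicle library 1. Of these 10 genes Cst3 alone was called in all 6 fits that left out 1 library.

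Against stem-like cells the difference was 1.45 for Dach1, 1.79 for Lsamp, 1.01 for Angpt1, 0.76 for Meis1 and 0.70 for Ikzf2. Genes found in monocytes, dendritic cells or plasma cells differed by -1.47 for Irf8, -3.14 for Ly86, -2.97 for Mpeg1, -0.92 for Cst3, -6.69 for Cd74, -5.73 for H2-Aa, -3.21 for H2-Ab1, -6.51 for H2-Eb1 and -3.49 for Ighm. Without cells of other types, H2-Aa was at 0.54, H2-Ab1 at 0.97, Cst3 at -0.24, Mpeg1 at -2.49, Ighm at -0.76 and Itga4 at -0.57, with edgeR adjusted p of 0.962, 0.735, 0.593, 0.322, 0.085 and 0.217, and Cd74 and H2-Eb1 were not tested. Ighm was at -0.49 without vehicle library 1. The remaining genes differed by -0.72 for Itga4, 1.46 for Spns2, 0.84 for Gcnt2 and 1.19 for Ccl4. Without vehicle library 1, Itga4 was at -0.41, Gcnt2 at 0.47 and Ccl4 at 0.70, with edgeR adjusted p of 0.69, 0.729 and 0.746. H2-Eb1 was at -4.16 without IACS-70654 library 1 (edgeR adjusted p = 0.747) and -10.44 without IACS-70654 library 2. Cd74 and H2-Eb1 had 0 to 2 UMIs in the treated libraries, so their values depend on the prior count of the fit.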

How the results depend on the processing

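Counts of called genes are given for vehicle minus WT, IACS-70654 minus vehicle and IACS-70654 minus WT (14, 124 and 89). DESeq2 called 3, 37 and 16. No filter on low counts gave 40 and 146 for the first and the last, at least 1 Flt3 UMI gave 65, 321 and 504, and at least 3 gave 53 for the last. At most 2 Elane UMIs gave 22 for the first. The rule after thinning gave 74 and 35 for the IACS-70654 comparisons, equal cell numbers 56 and 41, and thinned UMIs 53 and 24. Without called doublets the first and last were 6 and 43, without each gene's highest cell the last was 54, without cells of other types the first was 8, and an adjusted p under 0.05 gave 38, 313 and 236. With the replicate number as a block the counts were 12, 97 and 54. Same-numbered libraries did not deviate together (correlations of -0.27, -0.00 and 0.01 over 2702 genes), and the vehicle numbers crossed gave 31, 162 and 124. Leaving out 1 library gave 12 to 25, 53 to 157 and 37 to 119. The interactions gave 6 to 28 genes against Dntt+ cells and 12 to 70 against stem-like cells, and 2 and 37 without cells of other types. The vehicle minus WT share difference ran from -0.534 to 0.0476 points without 1 library and was 0.00080 at 3000 UMIs. In S phase that difference was -2.11 at 3000 UMIs and IACS-70654 minus WT ran from -3.49 to 3.08, while in G2/M IACS-70654 minus vehicle ran from -8.44 to 3.38 and IACS-70654 minus WT from -2.43 to 9.39. Reversed log2 fold changes of named genes were H2-Aa, vehicle minus WT, with at least 3 Flt3 UMIs (-0.53), Igkc without cells of other types (0.15 against vehicle, 0.0097 against WT), Igkc against WT with at most 2 Elane UMIs (0.099) and without the highest cell (0.0060), Blvrb against WT without cells of other types (1.03), and Hba-a1 and Hbb-bs against WT, which ran from -5.72 to 3.57 and from -4.68 to 1.53 without 1 library and were above 0 without WT library 1. Among called genes outside the naming rule, in IACS-70654 minus vehicle, Jchain and Iglc2 went to 0.81 and 0 without vehicle library 1 and Tox from 1.22 to -0.55 with the rule after thinning and -0.94 with thinned UMIs. The causes were not tested. Of 1749 alternative values of 89 called gene values, 1306 kept their call, 435 kept only their direction and 8 reversed. Depth per library, at most 1175998 UMIs over members, limits what low genes can show.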
